A study of Mus musculus with 8 samples.

Results

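The 10 genes described here encode the 2 G alpha subunits that switch on the small GTPase RhoA, Gna12 and Gna13, and 8 receptors that can act upstream of them: the lysophosphatidic acid receptors Lpar1, Lpar4 and Lpar6, the sphingosine-1-phosphate receptors S1pr2 and S1pr3, the thrombin receptor F2r, and the bradykinin receptors Bdkrb1 and Bdkrb2. They were taken by name from a table of 57180 genes, and all 10 passed the filter on low counts that left 15660 genes for testing. Bdkrb2 alone was selected on measured values, namely its counts in the control and RhoA het libraries compared here, so its difference is described and not tested. RNA came from freshly sorted muscle stem cells, the quiescent progenitors that repair skeletal muscle. The 4 libraries of the control group (numbered 2, 5, 7 and 8) are labelled wild type, and the 4 RhoA het libraries (replicates 5, 6, 7 and 8) carry a floxed RhoA allele beside an intact one in these cells and are labelled as a RhoA knockdown. The Cre driver, the age of the mice and any treatment are not given in the sources used here, nor is it said that the libraries are separate animals, so p-values measure only the spread between these samples.

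G12 and G13 proteins pass signals from receptors on the cell surface to exchange factors that load RhoA with GTP, and active RhoA in turn drives actin contraction. Lysophosphatidic acid, sphingosine-1-phosphate, thrombin and kinins are extracellular signals found in serum, at sites of injury and in inflamed tissue. Most of these receptors also couple to other G proteins, Gi and Gq among them, and bradykinin receptors are known mainly for Gq and Gi signalling.

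Total assigned fragments per library lay between 19138763 and 25606342. All 8 markers of muscle stem cells had fragments in every library, and their summed level was 8503 to 14840 CPM (counts scaled to a common total, with TMM-scaled library sizes) in control and 7700 to 15120 CPM in RhoA het. Most of that sum came from Sdc4 and Vcam1. Pax7, the transcription factor that defines these cells, was at 112.5 to 175.8 CPM in control and 78.5 to 105.6 CPM in RhoA het, without overlap. It was singled out after its values were seen, and the other markers of the list overlapped between the groups. The share of all genes that were lower in RhoA het without overlap is not given here, so nothing is read from it. RhoA het replicate 6 stood apart in its endothelial markers, with a sum of 691.8 CPM over 10 genes against 74.3 to 169.9 CPM in the other 7 libraries. Control replicate 2 and RhoA het replicate 6 were also the only libraries with more than 2 fragments on Y-linked genes. Rhoa itself, the targeted gene, ranged from 272.6 to 382.9 CPM in control and from 252.5 to 282.1 CPM in RhoA het. The groups overlapped in this range, although RhoA het was the lower in 3 of 3 same-numbered pairs. It differed by a log2 fold change of -0.29 (SE 0.13, n = 4 per group, exact permutation p 0.0571, edgeR adjusted p 0.9998), and -0.24 (SE 0.11, edgeR adjusted p 0.931) with the replicate number as a block. The labels do not say which exons are floxed, so counts over the whole gene are only a partial check of the genotype.

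The genes differed widely in level, from the thrombin receptor at the top to Bdkrb2 at the bottom. On the TPM scale (counts divided by gene length and scaled to a common total), averaged over all 8 libraries, F2r stood at 1029 ± 178 TPM (SD, n = 8) and ranked 143 among all genes in the table. Bdkrb1 followed at 514.1 ± 115 TPM and S1pr3 at 351.5 ± 86.1 TPM, and each of these 3 lay above the next gene in 8 of 8 libraries. Lpar1, at 123.6 ± 48.1 TPM, and Gna13, at 118.1 ± 24.1 TPM, could not be ordered, since Lpar1 was the higher in 4 of 8 libraries.

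The remaining 5 genes were much lower. S1pr2 averaged 13.8 ± 4.99 TPM, Gna12 12.1 ± 3.14 TPM, Lpar4 9.47 ± 4.15 TPM and Lpar6 9.43 ± 2.602 TPM (SD, n = 8 each). None of these neighbours was separated beyond its spread: S1pr2 exceeded Gna12 in 5 of 8 libraries, Gna12 exceeded Lpar4 in 6, and Lpar4 exceeded Lpar6 in 2. Bdkrb2 was the lowest at 3.45 ± 1.82 TPM, below Lpar6 in 8 of 8 libraries.

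**Figure D1:**
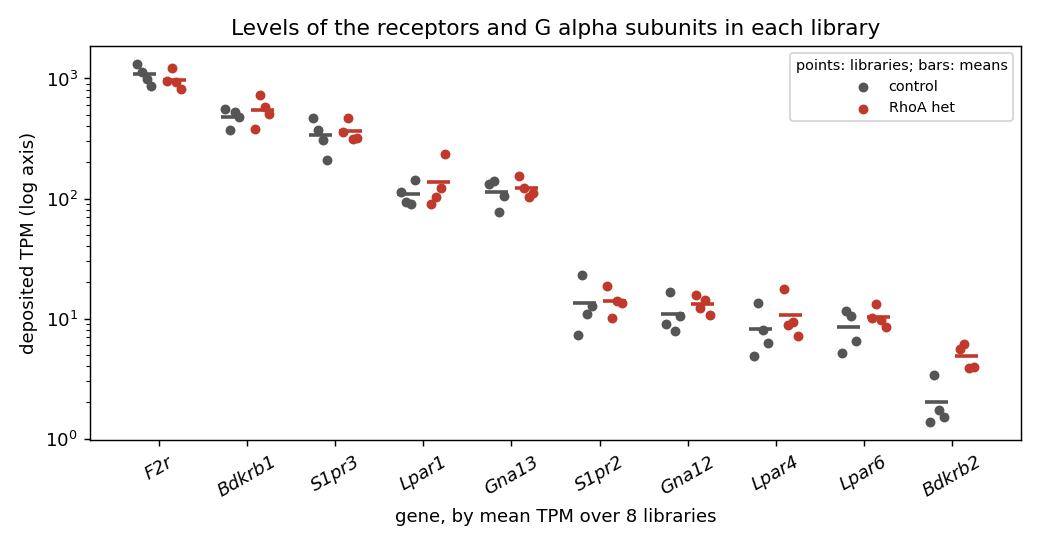
Deposited TPM (log axis) of the 10 genes in each library, ordered by their mean over 8 libraries, with control libraries in grey, RhoA het libraries in red and bars at the group means. F2r, Bdkrb1 and S1pr3 lie highest, with means of 1029, 514.1 and 351.5 TPM, and the groups are apart only for Bdkrb2.

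Of the TPM summed over the 8 receptors, F2r took 42.9% to 56.3% per library, Bdkrb1 18.3% to 29.0% and S1pr3 12.1% to 19.6%. Lpar1 took 4.06% to 12.3%. The other 4 receptors each stayed at or below 1.13%, so the receptors for thrombin, for the kinins that Bdkrb1 binds and for sphingosine-1-phosphate made up most of this sum.

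The regions before the start sites are shown for F2r and S1pr3, which were the pair with the most similar profiles over the libraries among the 10 genes, though not among all genes, and for Bdkrb2, the gene with the difference. Each is the 250 bases upstream of the RefSeq start site, given 5′ to 3′ on the gene's strand in build GRCm38.p6. Capitals mark matches to any of 7 motifs searched on both strands. These were the TBP motif TATAAA, the Sp1 motif GGGCGG (called GC box below), the TEAD motif GGAATG, the AP-1 motif TGANTCA, the E-box CAGCTG bound by myogenic factors, the CArG box of SRF and the kappaB site.
F2r (chr13:95618467-95618716, minus strand): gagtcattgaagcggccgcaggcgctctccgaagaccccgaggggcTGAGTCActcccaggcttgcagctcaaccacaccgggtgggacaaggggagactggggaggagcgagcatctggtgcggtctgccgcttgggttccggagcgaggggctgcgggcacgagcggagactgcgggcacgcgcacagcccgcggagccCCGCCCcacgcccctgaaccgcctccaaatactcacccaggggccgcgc
S1pr3 (chr13:51408368-51408617, plus strand): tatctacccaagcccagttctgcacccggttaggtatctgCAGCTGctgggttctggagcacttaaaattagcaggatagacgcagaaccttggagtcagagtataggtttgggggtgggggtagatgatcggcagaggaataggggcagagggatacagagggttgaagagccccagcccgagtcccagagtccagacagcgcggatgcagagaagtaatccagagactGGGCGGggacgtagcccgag
Bdkrb2 (chr12:105562922-105563171, plus strand): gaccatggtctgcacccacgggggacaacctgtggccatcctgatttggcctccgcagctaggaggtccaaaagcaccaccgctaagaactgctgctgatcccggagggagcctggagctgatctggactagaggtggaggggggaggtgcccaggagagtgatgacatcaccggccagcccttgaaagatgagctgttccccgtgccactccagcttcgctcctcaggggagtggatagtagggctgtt

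F2r held a GC box and an AP-1 match, S1pr3 a GC box and an E-box, and Bdkrb2 none of the 7 in this window. Among 32851 windows of the same length in the RefSeq table, a GC box occurred in 32.7%, an AP-1 match in 6.75% and the E-box in 13.001%. The F2r window was rich in G and C (70.8%, with 24 CpG) against a median of 52.4% and 6 CpG over all windows, while that of Bdkrb2 had 60.8% and 7 CpG. The search covered 9 of the 10 genes; the table used had no entry for Bdkrb1. No CArG box, the element of the actin-regulated SRF pathway, was found in the windows of these 9 genes, and it occurred in 1.47% of all windows. Such matches describe letters in a window and show no binding.

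The groups were then compared over all genes to ask whether these upstream genes differed between the genotypes. None of the 9 genes open to testing passed an adjusted p of 0.05 in edgeR's quasi-likelihood test, and none of all 15660 genes did (0% called). At an unadjusted p under 0.05 the count was 0 of 9, where 2.38% of all genes stood. DESeq2 and limma-voom likewise called 0 genes, and among the 9 none had an unadjusted p under 0.05 in either. The median log2 fold change over the 9 genes was 0.086, with 7 of them above 0, beside -0.00071 over all genes.

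The G alpha subunits are the step shared by the G12/13 branch of these receptors. Gna12 had 11.9, 15.9, 8.06 and 11.8 CPM in control replicates 2, 5, 7 and 8, and 15.4, 13.6, 14.5 and 11.1 CPM in RhoA het replicates 5, 6, 7 and 8. The highest and the lowest value were both control libraries, so the groups overlapped. Its log2 fold change was 0.20 (SE 0.22, 95% confidence interval from -0.29 to 0.68, exact permutation p 0.4, edgeR adjusted p 0.9998), and it was 0.046 without control replicate 7 and 0.36 without control replicate 5. Gna13 had 328.5, 251.3, 149.5 and 222.3 CPM in the control libraries, and 283.4, 257.7, 197.3 and 212.8 CPM in the RhoA het libraries, in the same order of replicates. Control replicates 2 and 7 were the highest and the lowest of all 8. Its log2 fold change was -0.00040 (SE 0.23, interval from -0.51 to 0.51, exact permutation p 0.886). That sign carries no weight: it was positive, at 0.15, when the 3 replicate numbers found in both groups entered the fit as a block (the replicate block), and at 0.071 with total counts.

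Gna13 was the more abundant subunit in every library, by 7.23-fold to 14.7-fold in TPM (10.8 ± 2.74 in control and 9.34 ± 1.42 in RhoA het, SD, n = 4 each). Gna12 lies on chromosome 5 (140744163 to 140816186, minus strand, mm39) and shares 13.4% of its exonic bases with the gene Amz1 on the opposite strand. The counts use neither strand nor a multi-overlap option. Fragments that overlap exons of both genes are then left uncounted, so its level may be understated. Gna13 lies on chromosome 11 (109253657 to 109292195, plus strand) and shares 2.35% with an unnamed gene model, Gm11696.

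Of the 3 lysophosphatidic acid receptors listed, Lpar1, which couples to G12/13, Gi and Gq, had the highest transcript level. Lpar1 (chromosome 4, 58435255 to 58553898, minus strand) had 187.2, 112.0, 116.7 and 200.1 CPM in control replicates 2, 5, 7 and 8, and 110.3, 145.0, 157.5 and 302.2 CPM in RhoA het replicates 5, 6, 7 and 8. RhoA het replicate 8 was the highest of all 8 and control replicate 8 the next, while both libraries numbered 5 were the lowest. The log2 fold change was 0.21 (SE 0.32, interval from -0.50 to 0.93, exact permutation p 0.714, edgeR adjusted p 0.9998), and without RhoA het replicate 8 it was -0.16.

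The mural list, which marks pericytes and smooth muscle, was also highest in RhoA het replicate 8, with a sum of 3614 CPM over 10 genes against 1922 to 2936 CPM in control and 1827 to 2807 CPM in the other RhoA het libraries. All 10 of its genes had fragments in every library, and 5 of the 10 were highest in this library. The most extreme was Myh11, a smooth muscle myosin, at 305.9 CPM there and at most at 124.4 CPM elsewhere, while Des, Notch3, Kcnj8, Abcc9 and Mcam peaked in other libraries. The Schwann list was also highest in RhoA het replicate 8, at 574.3 CPM, with 3 of its 6 genes highest there. The part of mural or Schwann RNA in the Lpar1 level was not tested. In bulk RNA such as this, fewer cells of a type and less RNA per cell cannot be told apart. With the replicate block the log2 fold change of Lpar1 was 0.31 (SE 0.13, edgeR unadjusted p 0.0372, adjusted p 0.921, a threshold that 0.0127% of all genes passed in that fit), higher in RhoA het in 2 of 3 pairs. It was the 1 gene of 9 past an unadjusted p of 0.05 in that fit, where 5.26% of all genes stood.

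Lpar4 and Lpar6, receptors of a separate branch that is related to nucleotide receptors and known for strong G12/13 coupling, were both low. Lpar4 (chromosome X, 105964231 to 105977506, plus strand) had 8.03, 16.1, 10.2 and 8.69 CPM in the control libraries and 21.4, 12.1, 12.01 and 9.20 CPM in the RhoA het libraries. Both libraries numbered 5 were the highest. The log2 fold change was 0.35 (SE 0.31, interval from -0.34 to 1.03, exact permutation p 0.371), higher in RhoA het in 3 of 3 pairs, and it was 0.045 without RhoA het replicate 5 and 0.60 without control replicate 5.

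Lpar6 had 10.9, 17.5, 17.0 and 11.6 CPM in control replicates 2, 5, 7 and 8, and 15.8, 23.2, 15.6 and 13.9 CPM in RhoA het replicates 5, 6, 7 and 8. RhoA het replicate 6 was the highest library, and the remaining RhoA het values lay inside the control range. The log2 fold change was 0.27 (SE 0.23, interval from -0.24 to 0.77, exact permutation p 0.314, edgeR adjusted p 0.9998). It was 0.084 without RhoA het replicate 6, the library with 691.8 CPM of endothelial markers, and -0.028 with the replicate block, which does not hold that library. The part of endothelial RNA was not tested. Lpar6 (chromosome 14, 73475335 to 73480734, plus strand) lies inside Rb1 on the opposite strand and shares 7.56% of its exonic bases with it. Fragments that overlap exons of both genes are left uncounted without a multi-overlap option. Unstranded reads from Rb1 over the other exonic bases of Lpar6 can add to its count.

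The sphingosine-1-phosphate receptors differed in level by 16.1-fold to 64.2-fold in TPM, with S1pr3 the higher in every library. S1pr3 (chromosome 13, 51562675 to 51576833, plus strand), which couples to Gi, Gq and G12/13, had 804.8, 461.6, 407.5 and 306.5 CPM in control and 459.6, 681.0, 423.1 and 428.8 CPM in RhoA het. Control replicate 2 and RhoA het replicate 6, the libraries with Y-linked reads, were the highest, and the RhoA het libraries all lay between the lowest and highest control library. The log2 fold change was 0.0089 (SE 0.29, interval from -0.64 to 0.66, exact permutation p 0.857), and it was 0.34 without control replicate 2 and -0.18 without RhoA het replicate 6.

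S1pr2 (chromosome 9, 20873657 to 20888077, minus strand) is the sphingosine-1-phosphate receptor best known for activating RhoA through G12/13. It had 22.4, 51.1, 26.1 and 33.0 CPM in control and 43.0, 26.1, 33.3 and 32.4 CPM in RhoA het. Both libraries numbered 5 were the highest, and control replicate 2, where S1pr3 peaked, was the lowest. Its log2 fold change was 0.022 (SE 0.26, interval from -0.56 to 0.60, exact permutation p 0.857), and it was 0.30 without control replicate 5.

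F2r (chromosome 13, 95738311 to 95754995, minus strand), which thrombin activates by cutting its extracellular end and which couples to Gq, Gi and G12/13, had 1709, 1065, 983.8 and 952.1 CPM in the control libraries. The RhoA het libraries had, in replicate order, 910.6, 1318, 932.1 and 820.4 CPM. Control replicate 2 and RhoA het replicate 6 were again the highest, and the other 3 RhoA het libraries lay below every control library in CPM. In TPM only RhoA het replicate 8 did, at 816.7 TPM, beside 871.8 TPM in control replicate 8. The log2 fold change was -0.24 (SE 0.23, interval from -0.76 to 0.27, exact permutation p 0.429, edgeR adjusted p 0.9998), with a lower value in RhoA het in 3 of 3 pairs. It was -0.0086 without control replicate 2 and -0.41 without RhoA het replicate 6, so 1 library in each group moved it by more than 1.5 times. With the replicate block, which holds neither, it was -0.20 (SE 0.12).

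The ratio of F2r to S1pr3 in TPM was 2.84, 3.08, 3.23 and 4.16 in control and 2.65, 2.59, 2.95 and 2.56 in RhoA het. The groups overlapped through RhoA het replicate 7 alone. This ratio was looked at after its values were seen and was not tested.

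Bdkrb1 (chromosome 12, 105569344 to 105571687, plus strand), the receptor for kinins that have lost their last arginine, is known in many tissues as a gene induced by injury and inflammation. In these cells it was the second most abundant gene of the list on the TPM scale. In CPM, which is not divided by gene length, its mean of 233.6 CPM also lay below those of S1pr3 (496.6) and Gna13 (237.9). It had 307.9, 148.6, 226.2 and 223.7 CPM in control replicates 2, 5, 7 and 8 and 156.3, 341.2, 247.4 and 217.0 CPM in RhoA het replicates 5, 6, 7 and 8. The libraries numbered 5 were the lowest in both groups, and control replicate 2 and RhoA het replicate 6 the highest. The log2 fold change was 0.086 (SE 0.27, interval from -0.51 to 0.68, exact permutation p 0.714, edgeR adjusted p 0.9998), and it was -0.13 without RhoA het replicate 6 and 0.27 without control replicate 2.

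Bdkrb2 (chromosome 12, 105529485 to 105561496, plus strand) lies 7847 bases before Bdkrb1 on the same strand and encodes the receptor for intact bradykinin, which most tissues express without induction. Its counts were 38, 77, 53 and 40 fragments in control replicates 2, 5, 7 and 8, and 129, 160, 99 and 88 fragments in RhoA het replicates 5, 6, 7 and 8. Scaled, these were 2.01, 3.58, 1.99 and 1.88 CPM in control and 6.06, 7.61, 4.44 and 4.52 CPM in RhoA het. All 4 RhoA het libraries lay above all 4 control libraries. The control mean was 2.36 ± 0.812 CPM and the RhoA het mean 5.66 ± 1.498 CPM (SD, n = 4 per group), which is 2.39-fold higher or 1.26 on the log2 scale. Since the gene was chosen for this difference, no p is given. RhoA het was above control without overlap for 1.02% of all genes tested, and nothing is read from Bdkrb2 being among them.

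The value of Bdkrb2 moved with single libraries. With groups that do not overlap its sign could not change, so only the size is given. It was 1.03 on the log2 scale with the replicate block, 1.08 without RhoA het replicate 6 and 1.52 without control replicate 5. The endothelial sum was 113.6 to 143.9 CPM in the other 3 RhoA het libraries, inside the control range of 74.3 to 169.9 CPM. Pax7, as given above, was lower in RhoA het without overlap, while the other muscle stem cell markers overlapped between the groups. The other marker sums overlapped between the groups. Mural markers lay between 1922 and 2936 CPM in control and between 1827 and 3614 CPM in RhoA het, and the 10 fibro-adipogenic markers between 4924 and 14310 CPM and between 8667 and 12860 CPM. Schwann markers (6 genes) ranged from 279.5 to 494.0 CPM and from 264.7 to 574.3 CPM, and myofibre markers (10 genes) from 72.3 to 471.5 CPM and from 45.6 to 438.3 CPM. Immune markers (8 genes) ranged from 118.1 to 356.4 CPM and from 92.1 to 321.1 CPM, with Adgre1, Cd3e and Itgam at 0 in some libraries. Most of that sum came from Lyz2. Of the 8 genes, 5 were highest in RhoA het replicate 6, among them Ptprc (4.42 CPM, at most 0.47 CPM elsewhere) and Csf1r (4.90 CPM, at most 0.70 CPM elsewhere). Lyz2, Cd68 and Cd79a peaked in other libraries. Erythroid and platelet markers (8 genes) ranged from 4.97 to 134.8 CPM and from 8.08 to 305.4 CPM, with Pf4, Ppbp and Gp9 at 0 in some. The part of any of these, Pax7 included, in the Bdkrb2 level was not tested.

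**Figure D2:**
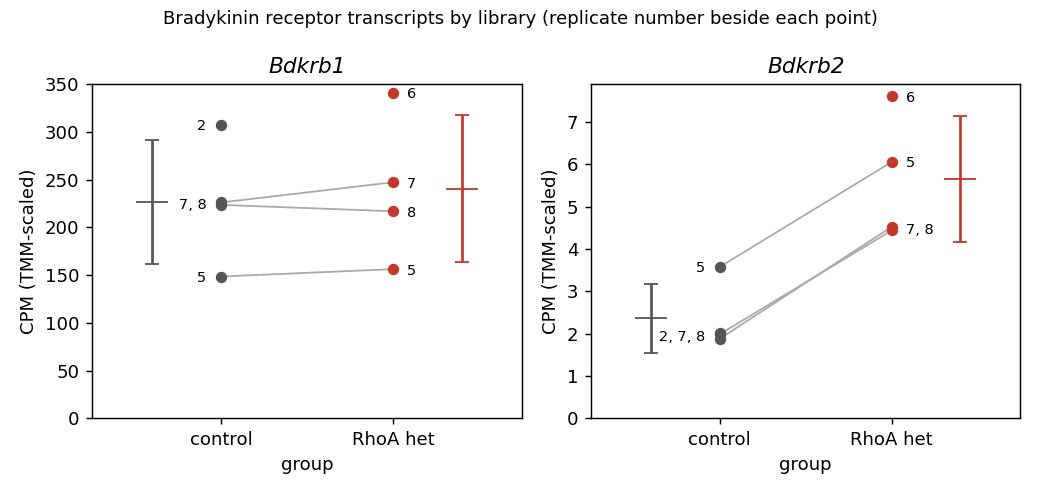
CPM (TMM-scaled) of Bdkrb1 (left) and Bdkrb2 (right) in the control and RhoA het libraries, with the replicate number beside each point, grey lines joining same-numbered libraries, and mean and SD at the sides. Bdkrb1 ranges from 148.6 to 341.2 CPM with both groups mixed, while Bdkrb2 is at most 3.58 CPM in control and at least 4.44 CPM in RhoA het.

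Bdkrb1 exceeded Bdkrb2 in every library, although the groups differed in how far. The TPM ratio was 405.4, 109.8, 300.9 and 314.7 in control and 68.2, 118.5, 147.3 and 126.8 in RhoA het. The groups overlapped because control replicate 5 lay below 3 of the RhoA het libraries. The ratio contains the difference for which Bdkrb2 was chosen and was not tested. Even in RhoA het, Bdkrb2 made up 0.238% ± 0.0481 of the receptor TPM (SD, n = 4), beside 0.0999% ± 0.0471 in control.

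**Figure D3:**
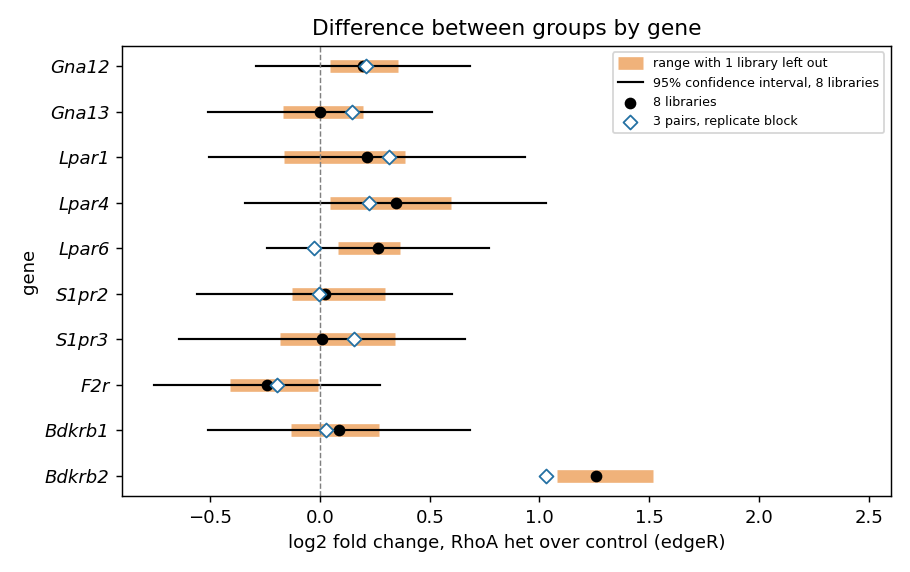
Log2 fold change of RhoA het over control in edgeR for each gene, with black points for all 8 libraries, lines for 95% confidence intervals, orange bars for the range when 1 library is left out, and diamonds for the fit over 3 pairs with the replicate block. The intervals of the 9 tested genes include 0, from -0.76 for F2r to 1.03 for Lpar4 at the ends, and Bdkrb2, chosen for its difference, is shown without an interval.

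Across the 8 libraries the genes did not vary as 1 group. S1pr3 and F2r had the most similar profiles, with a root-mean-square difference of 0.50 between profiles scaled to their own mean and SD. F2r was only rank 88 of all genes in likeness to S1pr3. The next pair was Lpar4 and S1pr2 at 0.67. These are descriptions over 8 libraries that share depth and makeup. F2r, S1pr3, Gna13 and Bdkrb1 were all above their means in control replicate 2 and RhoA het replicate 6. S1pr2, Lpar4 and Gna12 were above theirs in both libraries numbered 5, where Bdkrb1 and Lpar1 were below.

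**Figure D4:**
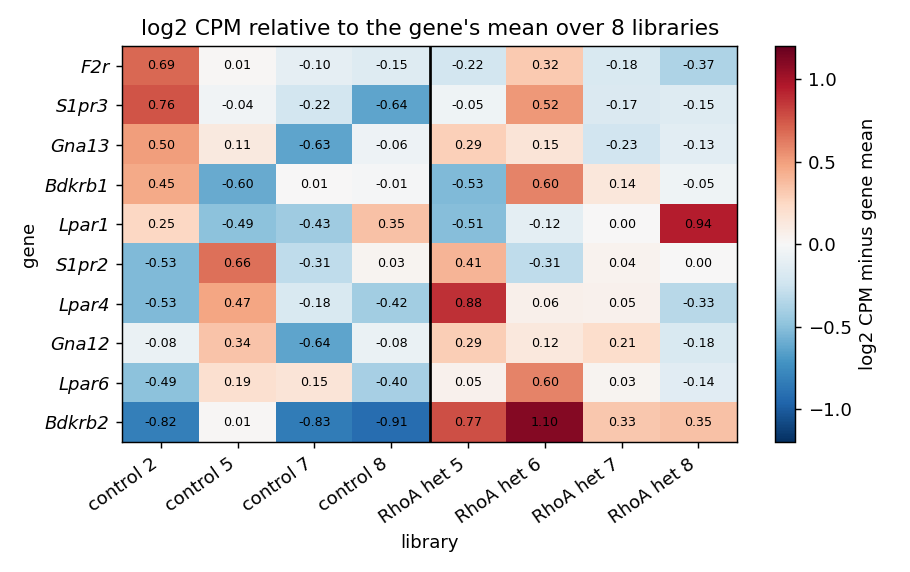
Log2 CPM of each gene minus its mean over 8 libraries, by library, with control at the left of the line and RhoA het at the right. F2r and S1pr3 share their highest values in control replicate 2 (0.69 and 0.76), Lpar1 peaks in RhoA het replicate 8 (0.94), and Bdkrb2 is below its mean in 3 control libraries and above it in all 4 RhoA het libraries.

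The same measure of likeness was taken against the other 15659 genes tested. Nearest to S1pr2 was Itga7, the integrin subunit used to sort muscle stem cells, at 0.085. Nearest to Bdkrb1 was Cry2, a repressor of the circadian clock, at 0.16, and nearest to Lpar6 was Sox18, an endothelial transcription factor, at 0.23. Sox18 was at 15.7 CPM in RhoA het replicate 6 and at most at 4.50 CPM elsewhere. The nearest genes were Rnf182 to Gna12 (0.22), Rnf24 to Gna13 (0.25), Rusc2 to Lpar1 (0.21), Cenpj to Lpar4 (0.16), Ntsr2 to S1pr3 (0.15) and Fbxw4 to F2r (0.18). For Bdkrb2 they were Gm15576 (0.28), Zfp712 (0.30) and C230053D17Rik (0.34), all of them at most at 2.04 CPM in any library. Rnf182 and Fbxw4 were also low, at most at 0.90 CPM in any library, and Ntsr2 was at most at 4.75 CPM. Likeness to such low genes rests on few fragments.

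The rest of the pathway was read from lists of 39 further genes, of which 28 passed the filter. In edgeR 0 of the 28 passed an adjusted p of 0.05 in either direction, 0 had an unadjusted p under 0.05, and 18 had a log2 fold change above 0 (median 0.059). DESeq2 also gave 0 and 0. Of the 9 other receptors of these families 3 were tested, and the remaining 6 held at most 26 fragments in any library. S1pr1, the Gi-coupled sphingosine-1-phosphate receptor of endothelium and lymphocytes, was at 10.01 to 21.2 CPM in control. It was at 10.7 to 12.96 CPM in RhoA het replicates 5, 7 and 8, and at 63.7 CPM in replicate 6, the library with the high endothelial markers. Lpar3 (log2 fold change -0.42, SE 0.60) and F2rl1 (0.51, SE 0.57) averaged 2.08 and 1.42 TPM, far below Lpar1 and F2r. Both turned direction in limma-voom, to 0.25 for Lpar3 and -0.10 for F2rl1. Lpar3 was at 4.55 CPM in control replicate 5 and at 0.64 to 1.03 CPM in the other control libraries.

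The exchange factors that carry the signal from G alpha 12/13 to RhoA were all present. Arhgef1 averaged 30.5 ± 6.60 TPM, Arhgef12 13.8 ± 2.58 TPM and Arhgef11 2.01 ± 0.468 TPM (SD, n = 8 each), with log2 fold changes of 0.12 (SE 0.16), 0.056 (SE 0.15) and 0.40 (SE 0.20). Arhgef11 had 3.70, 3.72, 4.87 and 4.74 CPM in control and 6.39, 5.61, 4.98 and 5.50 CPM in RhoA het. The groups did not overlap, as for 1.02% of all genes with RhoA het the higher, but the gene did not pass (edgeR unadjusted p 0.0737, adjusted p 0.9998). It shares 12.5% of its exonic bases with a gene on the opposite strand.

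Other G alpha subunits gave the scale on which the G12/13 class is seen. Gnai3, an inhibitory subunit, averaged 333.4 ± 37.8 TPM and Gnas, the stimulatory subunit, 247.4 ± 46.3 TPM, both above Gna13. Gnai2 averaged 55.6 ± 7.01 TPM (SD, n = 8 each). Their log2 fold changes were -0.031 (SE 0.11), -0.26 (SE 0.20) and 0.089 (SE 0.15), and 0 of the 9 tested subunits passed the test. Gnas was at -0.080 with the replicate block. Without control replicate 7 its edgeR unadjusted p was 0.0317, and it did not pass the adjusted threshold.

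Genes for the supply and removal of the ligands (enzymes, the transporter Spns2, prothrombin and the kininogens) formed the last list, with 13 of 17 genes tested and 0 passing. Plpp3 and Plpp1, phosphatases that break down lysophosphatidic acid at the cell surface, averaged 115.2 ± 38.9 and 107.7 ± 21.3 TPM. Sgpl1, the lyase that destroys sphingosine-1-phosphate, averaged 106.8 ± 22.5 TPM (SD, n = 8 each). Their log2 fold changes were 0.30 (SE 0.30), -0.19 (SE 0.17) and -0.18 (SE 0.17), and with the replicate block they were 0.24, -0.15 and -0.069.

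Enpp2, the secreted enzyme that makes lysophosphatidic acid, and Sphk1, a kinase that makes sphingosine-1-phosphate, were chosen after their values were seen. They are described by their values, and nothing is read from a p of theirs. Enpp2 had 434.1, 105.0, 100.3 and 122.8 CPM in control and 176.5, 198.1, 132.9 and 148.3 CPM in RhoA het. Sphk1 had 95.7, 42.0, 26.5 and 46.0 CPM in control and 58.4, 40.8, 49.5 and 61.9 CPM in RhoA het. Control replicate 2 was the highest library for both, and the groups overlapped. Over all 8 libraries the log2 fold changes were -0.22 (SE 0.45) for Enpp2 and 0.0032 (SE 0.34) for Sphk1. In the 6 libraries numbered 5, 7 and 8 they were 0.46 and 0.54 without the replicate block and 0.45 and 0.58 with it, so they moved with the choice of libraries and little with the block. In the block fit 4 of the 28 genes had an unadjusted p under 0.05, where 5.26% of all genes stood, and 0 passed the adjusted threshold. They were Enpp2, Sphk1, Mme, a peptidase that degrades kinins (log2 fold change 1.26), and Gnaz, a Gi-class subunit (1.15). Over all 8 libraries Mme was at 0.41 (SE 0.64) and Gnaz at 0.94 (SE 0.54). Control replicate 2, which the block leaves out, was the highest library for Mme, at 9.19 CPM. All 4 were named after their values were seen.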

How the data were processed

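Per the file headers, the authors counted paired-end fragments with featureCounts 1.6.4 over exons by gene (GENCODE mouse release 34, mm39) from STAR alignments, with no strand, multi-mapping or multi-overlap option. The deposited counts are whole fragments. The deposited TPM equalled counts divided by gene length and rescaled (largest relative difference 2e-14). Symbols came from an identifier table that named 51884 of 57180 genes. The members and lists were chosen with earlier results of these data known.

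Counts were filtered with filterByExpr, scaled by TMM and compared with edgeR's quasi-likelihood test (edgeR 4.0.16, R 4.3.3) over 8 libraries, with Benjamini-Hochberg adjustment over 15660 genes. Standard errors come from the F statistic. Two-sided exact permutation tests over 70 assignments used log2 CPM (prior count 2) for Rhoa and 9 genes, the smallest possible p being 0.0286. On simulated counts with 200 changed genes among 15660 in this comparison, the test recovered 75% of 4-fold and 11% of 2-fold changes.

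Replicate numbers 5, 7 and 8 occur in both groups. Deviations from group means of same-numbered libraries correlated at 0.544, 0.231 and 0.488 across genes. Each was over 0.1, the limit set for treating them as pairs in a block fit. Differently numbered libraries were not compared, and the group means include control replicate 2 and RhoA het replicate 6, which lie outside the block. These correlations therefore cannot show that same-numbered libraries are true pairs. Named genes were the members, Rhoa, the 3 most abundant genes per pathway list and the nearest profiles. Enpp2, Sphk1, Mme, Gnaz and the single marker genes were added after their values were seen. Alternatives were DESeq2 (1.42.0) and its size factors, total counts, no filter, limma-voom (limma 3.58.1), limma on log2(TPM + 1) and log2(TPM + 0.1), a term for Y-linked reads, the block, and leaving out each library.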

Additional observations from a re-analysis of the deposited data

Results flagged for a closer look

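Within each group of 4 libraries, the gap between the highest or lowest library and its neighbour was set against the range of the group for the 10 genes. Of 20 groups, 1 was past Dixon's 95% critical value, and chance gives about 1 in 20. Bdkrb2 in control replicate 5, at 3.58 CPM, had a ratio of 0.898 on the log2 scale, with the other control libraries between 1.88 and 2.01 CPM.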

How the results depend on the processing

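With the replicate block, 2 genes changed over the whole table in place of 0, and 0 of the 9 tested genes or 28 to 39 pathway genes passed under any alternative. F2r, Gna12 and Lpar4 kept their direction in all 18 alternatives. Gna13 was positive at 0.12 in limma on log2(TPM + 1) and at 0.12 with TPM + 0.1, at 0.029 with the term for Y-linked reads, at 0.071 with total counts, at 0.15 with the replicate block and at 0.13 in the same 6 libraries without it. Lpar6 was -0.028 with the replicate block and -0.046 without it in those 6, and S1pr2 was -0.0019 and -0.042. The block changed no call among these genes. The cause of the reversals was not tested. Leaving out any 1 library gave 0 changed genes and log2 fold changes of -0.17 to 0.19 for Gna13, -0.16 to 0.39 for Lpar1, -0.13 to 0.30 for S1pr2, -0.18 to 0.34 for S1pr3 and -0.13 to 0.27 for Bdkrb1, which crossed 0, beside 1.08 to 1.52 for Bdkrb2. Bdkrb2 rested on 38 to 160 fragments per library. With 11% of simulated 2-fold changes recovered, differences of that size could be missed.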
